A study of Mus musculus with 24 samples.

Results

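Respiratory complex I subunits were taken as the probe targets whose gene symbol begins with Nduf, followed by 1 of the letters a, b, c, s or v and a number. This rule found 39 of 19962 targets and reads names only, but the members were chosen with earlier results of these data known. The names of the assembly factors (Ndufaf genes) do not match it. Complex I is the first enzyme of the mitochondrial respiratory chain. Its peripheral arm stands in the matrix, takes electrons from NADH through a flavin and a chain of iron-sulphur clusters, and hands them to ubiquinone. Its membrane arm pumps protons, and around the core subunits lie many accessory ones that stabilise the complex. Brain tissue, and neurons above all, depends heavily on this chain for ATP.

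The values come from 24 regions of mouse brain, profiled on the GeoMx instrument, which releases barcode tags from hybridized RNA probes in a chosen area and counts them by sequencing. The 6 groups of 4 regions were males and females of 3 genotypes, labelled WT (wild type), MG-cKO and BMM-cKO. The series title concerns macrophage Lyn, a Src-family kinase of myeloid cells, and sex differences after subarachnoid haemorrhage (SAH), and the design text calls the wild-type group WT-SAH. The labels do not spell out MG-cKO and BMM-cKO. The Cre driver, the deleted allele and the age of the mice are not given in the sources used here, and sham regions were not analysed here. The labels give the cell type as macrophage, and Tmem119 and Iba-1 were the stains that guided the choice of regions. Which animal a region came from is not given, so p-values cover only the spread over regions and would be too small if any 2 came from 1 animal. Scan 2 held the males and scan 3 the females, so sex and scan cannot be told apart.

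A level in the text is a multiple of its region's negative probe, a probe that matches no mouse transcript, given as mean ± SD over the 4 regions of a group. A level near 1 is background. Each target is read by its own probe, so an order of levels between targets is an order of probe signals and not of transcript numbers. A change is a limma log2 difference between groups after each region was centred on its median target, given with its SE, and a target was called at a Benjamini-Hochberg adjusted p under 0.05 over all 19962 targets. Because of the background in every value, a change of the signal understates any change of the transcript. Tags were recovered from the steps between the deposited values and are not raw counts. By this a region had from 1839154 to 10779960 tags, and a complex I target had from 51 to 1045 tags in a region. Counting error at the median complex I target was 4.43% to 9.95%, and covers counting only. Neuronal RNA was read in these regions beside microglial RNA: over all regions 15 of 20 neuron markers averaged above 2 times the negative probe, against 1 of 16 microglia and macrophage markers. Tmem119 RNA had a group mean of 0.752 to 0.871, below the negative probe in each of the 6 groups, and Aif1, which encodes Iba-1, 1.38 to 2.54. A region is a mixture of cells, so fewer cells of a type and less RNA per cell cannot be told apart.

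Complex I subunits were read above background, but not far above it. Over all regions 36 of 39 averaged above the negative probe, 12 above 1.5 times it, 3 above 2 times it and 0 above 3 times it. The share above 2 times was 7.69%, against 3.14% of all targets. The median member had a mean level of 1.38, against 1.06 for the median target, and lay at the 82.3rd percentile of all targets. The members just inside 2 times the negative probe were Ndufa1 at 2.12, Ndufa4 at 2.05 and Ndufb11 at 2.04, and those just outside were Ndufs5 at 1.95 and Ndufa3 at 1.92. Of the 39 symbols, 38 had an entry in RefSeq (GRCm38.p6), on 16 chromosomes. Only Ndufa1 and Ndufb11 were on the X chromosome, and Ndufb11b had no entry. The 7 subunits of complex I that mitochondrial DNA encodes, mt-Nd1 to mt-Nd6 with mt-Nd4l, were not analysed here.

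The promoters of these genes carried different motifs of factors known for nuclear genes of the respiratory chain. Whether a motif goes with the change of a member was not tested. The windows searched were RefSeq's (GRCm38.p6), 250 bases before to 50 after the start of the gene, on both strands, and 33 members had one. The nuclear respiratory factor motif, GCGCA, any base and then GCGC, stood in 7 of 33 (21.2%), against 5.19% of 27025 genes. The YY1 motif AANATGGCG also stood in 7 of 33 (21.2%), against 2.76% of all genes, and Ndufs6 held both. Before the start, the nuclear respiratory factor motif stood in 6 of its 7 members and the YY1 motif in 2 of its 7. The ETS motif CCGGAAGN stood in 4 of 33 (12.1%), against 9.90%. None of the 3 was in the windows of 16 members, which says only that these letters are not there. Each line below gives 60 bases 5′ to 3′ in the direction of the gene, with the motif in capitals; a motif on the opposite strand appears as its reverse complement.
Ndufs6: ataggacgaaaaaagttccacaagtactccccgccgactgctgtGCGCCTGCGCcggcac
Ndufb4: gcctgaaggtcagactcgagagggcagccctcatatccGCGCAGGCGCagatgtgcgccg
Ndufa8: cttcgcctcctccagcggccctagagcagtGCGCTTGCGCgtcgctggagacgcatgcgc
Ndufa11: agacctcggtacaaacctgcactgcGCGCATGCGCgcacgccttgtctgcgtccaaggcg
Ndufs5: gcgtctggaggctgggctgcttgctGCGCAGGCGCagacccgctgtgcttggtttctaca
Ndufb11: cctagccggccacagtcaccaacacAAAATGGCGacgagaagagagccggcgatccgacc
Ndufa1: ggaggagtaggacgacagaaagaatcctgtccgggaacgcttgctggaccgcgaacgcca
The first 5 carry the nuclear respiratory factor motif, Ndufb11 the YY1 motif, and Ndufa1 none of the 3, so that its 60 bases next to the start are shown without capitals. The positions in GRCm38.p6 were chr13:73328483-73328542 for Ndufs6, chr16:37654369-37654428 for Ndufb4, chr2:36049339-36049398 for Ndufa8 and chr4:123718250-123718309 for Ndufs5, all on the minus strand. Ndufa11 was at chr17:56717677-56717736 on the plus strand. The X-linked windows were chrX:20617796-20617855 for Ndufb11 and chrX:37191239-37191298 for Ndufa1, both on the minus strand.

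Signal of most subunits was highest in MG-cKO females and lowest in BMM-cKO males. The mean over regions of the median member level was 1.78 ± 0.275 in MG-cKO females, 1.47 ± 0.140 in WT males, 1.39 ± 0.173 in BMM-cKO females, 1.37 ± 0.0434 in MG-cKO males, 1.16 ± 0.111 in WT females and, lowest, 0.991 ± 0.0254 in those of BMM-cKO males (SD, n = 4 each). The highest group mean was in MG-cKO females for 34 of 39 members, and the lowest in BMM-cKO males for 36 of 39. The shares of all targets with these orders were not computed. The region medians of neighbours in this order overlap, except that all 4 BMM-cKO male regions lay below those of WT females. In BMM-cKO males 20 members had a group mean below the negative probe, against 9 in WT females and 1 to 3 in each of the other 4 groups. The negative probe was at 0.909 ± 0.0246 of the median target in MG-cKO females and at 0.990 ± 0.00687 in BMM-cKO males. By this the median target too lay higher in MG-cKO females and near the negative probe in BMM-cKO males. Group means above 2 times the negative probe were reached by 11 members in MG-cKO females, by 5 in BMM-cKO females and by 0 to 2 elsewhere.

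**Figure D1:**
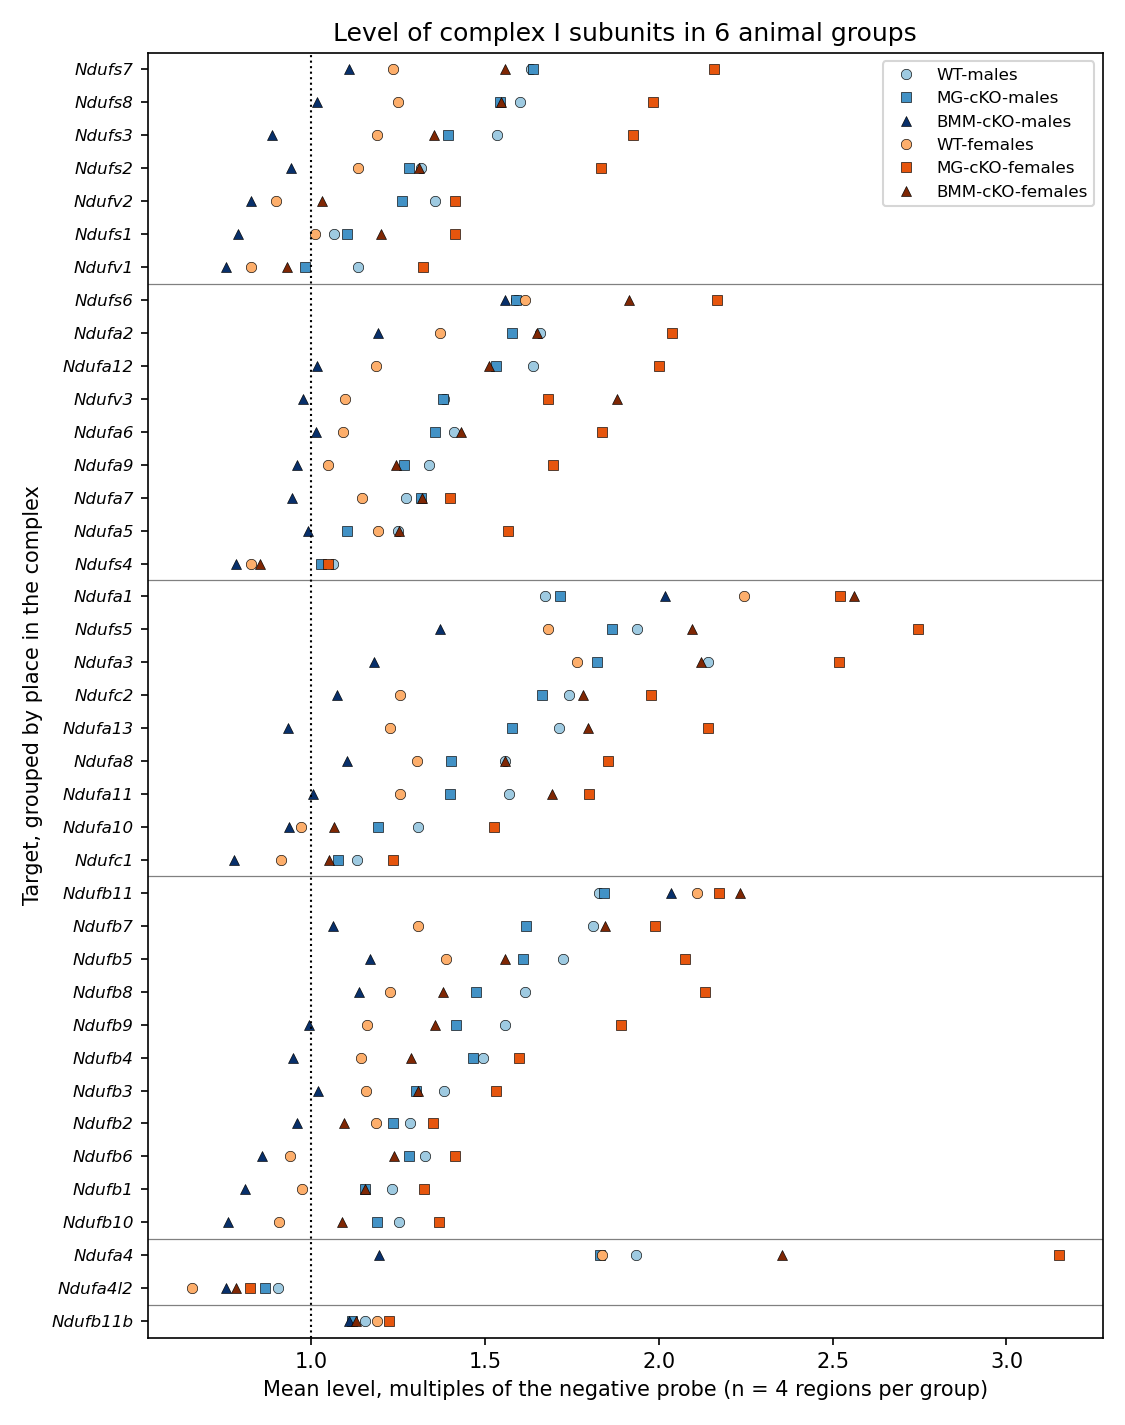
Each point is the mean level of 1 complex I target in 1 of the 6 animal groups (horizontal axis, multiples of the negative probe, n = 4 regions), with targets grouped from top to bottom as core peripheral, accessory peripheral, proximal membrane, distal membrane, Ndufa4 with Ndufa4l2, and Ndufb11b. MG-cKO females lie to the right for 34 of 39 targets and BMM-cKO males to the left for 36 of 39. The shares of all targets with these orders were not computed.

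By place in the complex, the levels over all regions overlapped. The 7 core subunits of the peripheral arm had a median of 1.30 (0.991 to 1.55), its 9 accessory subunits 1.36 (0.933 to 1.74), the 9 subunits of the proximal membrane arm 1.56 (1.03 to 2.12) and the 11 of the distal membrane arm 1.32 (1.09 to 2.04). The median of the core subunits was 1.36 in WT males, 0.888 in BMM-cKO males, 1.13 in WT females and 1.83 in MG-cKO females. Ndufa4 and Ndufa4l2 match the name rule, but Ndufa4 is now placed in cytochrome c oxidase, complex IV, and Ndufa4l2 is its paralogue, known as a target of hypoxia-inducible factor.

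In females, MG-cKO regions had more signal of complex I subunits than WT regions. limma called 31 of 39 members higher and 0 lower, while 11% of all targets were called higher and 4.64% lower. Among the 626 targets that averaged above 2 times the negative probe over all regions, 46.8% were called higher. A target can pass that level through the group where it is high. On average 6.91% of targets were above it in an MG-cKO female region, against 2.24% to 4.59% in the other groups. Only 3 of the 39 members passed it, so shares among the 626 are no level-matched standard for the members. The median change was 0.48 over the members, −0.01 over all targets and 0.35 over those 626. After the centring, all 4 MG-cKO regions lay above all 4 WT regions for 24 members, as for 10.4% of all targets. Called higher were 7 of 7 core subunits of the peripheral arm, 6 of 9 accessory ones, 8 of 9 of the proximal and 9 of 11 of the distal membrane arm, and Ndufa4.

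Ndufs7, a core subunit whose iron-sulphur cluster passes electrons to ubiquinone, had levels of 2.28, 1.76, 2.42 and 2.17 in the MG-cKO female regions and 1.30, 1.12, 1.28 and 1.24 in the WT female regions. The groups did not overlap, and the change was 0.69 ± 0.10, a 1.61-fold difference (limma adjusted p = 7.8e-06). Ndufa13, a proximal membrane arm subunit also known as GRIM-19, was read at 2.20, 1.71, 2.32 and 2.33 against 1.38, 1.15, 1.19 and 1.18. Its change was also 0.69 ± 0.15 (limma adjusted p = 0.000986). Ndufb8, a distal membrane arm subunit widely used as an antibody target for the assembled complex, was at 2.13 ± 0.415 against 1.23 ± 0.217, a change of 0.69 ± 0.12 (limma adjusted p = 7.06e-05). Again no WT female region reached an MG-cKO female region.

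Ndufa4 had the highest group mean of any member, 3.15 ± 0.603, with 3.26, 2.28, 3.65 and 3.42 in MG-cKO female regions against 2.08, 1.56, 2.06 and 1.65 in WT female regions. It rose by 0.66 ± 0.15 (limma adjusted p = 0.00158), but under quantile normalization the change was 0.33 and was not called (limma adjusted p = 0.0621). Its paralogue Ndufa4l2 stayed below the negative probe in both groups, at 0.822 ± 0.0945 and 0.655 ± 0.0648, and was not called. Among the 8 members not called were the X-linked pair, Ndufa1 with a change of 0.06 ± 0.12 and Ndufb11 with −0.06 ± 0.11. The others were Ndufa4l2, Ndufa5, Ndufa7, Ndufb11b, Ndufb2 and Ndufs4. In MG-cKO females, region 2 was lower than the other 3 for the median member, at 1.39 against 1.83 to 2.02.

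Other genes of the pathway did not all follow. Ndufab1, the mitochondrial acyl carrier protein that is also a complex I subunit, rose by 0.51 ± 0.11 (limma adjusted p = 0.000929). All 10 NADH-producing dehydrogenase genes of the matrix were called higher, with a median change of 0.54, led by Mdh2, the malate dehydrogenase of the citric acid cycle, at 0.85 ± 0.15 and by Pdha1, of pyruvate dehydrogenase, at 0.65 ± 0.10. Of 16 measured assembly factors, which build the complex and are not part of it, 1 was called higher (Ndufaf5, 0.27 ± 0.09) and 1 lower (Tmem186, −0.29 ± 0.08), with a median change of 0.04. Of 10 regulators of mitochondrial genes 2 were called higher, Ppargc1a, a coactivator, at 0.41 ± 0.10 and Esrra, the nuclear receptor it works with, at 0.41 ± 0.11.

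Neuron markers moved with this result. limma called 16 of 20 higher and 1 lower, with a median change of 1.23, and Snap25, of the synaptic release machinery, was at 25.4 ± 6.59 in MG-cKO females against 4.55 ± 1.48 in WT females. The summed level of the 20 markers was 102 to 172 in MG-cKO female regions and 39.1 to 62.7 in WT female regions. Of 16 microglia and macrophage markers 0 were called higher and 9 lower, with sums of 17.6 to 18.8 and 20.9 to 22.1. Cytosolic ribosomal proteins were called higher for 5 of 16. The part of these in the complex I result was not tested.

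**Figure D2:**
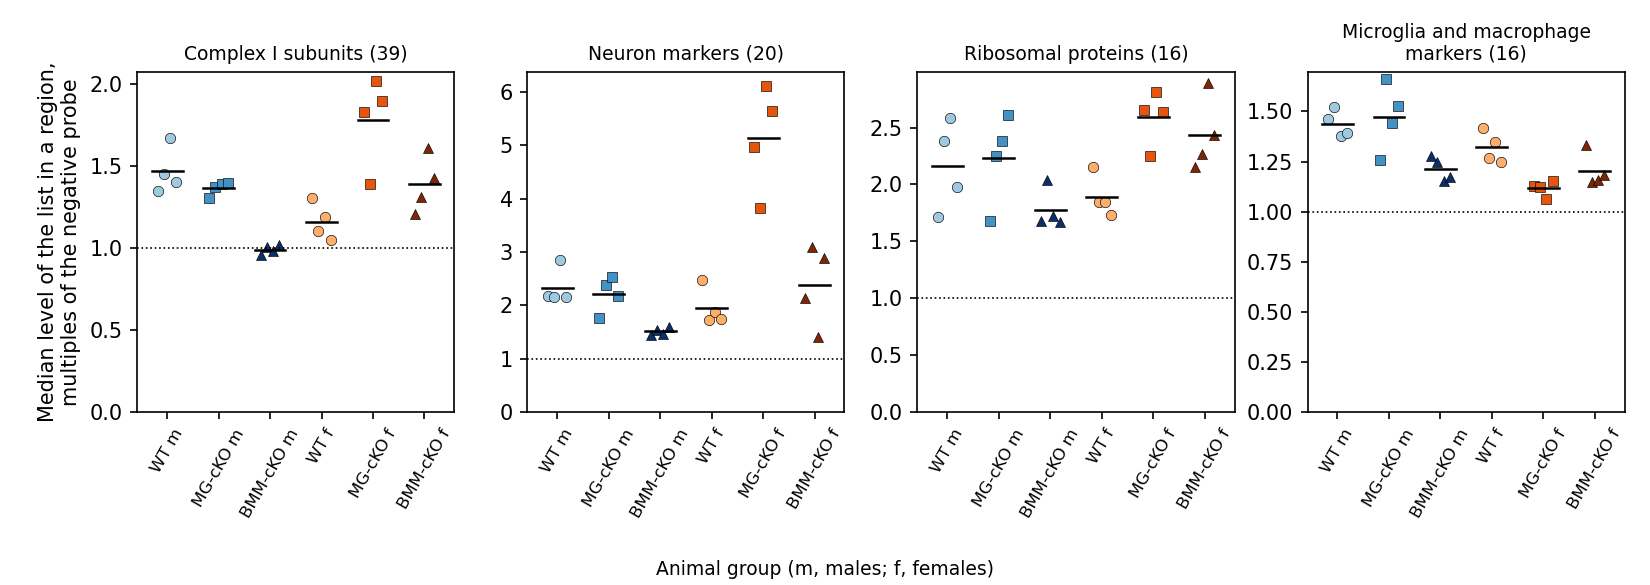
Each point is the median level of a gene list in 1 region (vertical axis, multiples of the negative probe, 1 scale per panel, dotted line at the negative probe) and each bar the mean of 4 regions. Complex I subunits, neuron markers and ribosomal proteins were all highest in MG-cKO females (1.78, 5.14 and 2.59) and lowest in BMM-cKO males (0.991, 1.51 and 1.78). Microglia and macrophage markers were lowest in MG-cKO females (1.12).

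In males, no difference between MG-cKO and WT regions was called for any complex I subunit. limma called 0 of 39, and 0.2% of all targets, and the count was also 0 with voom on tags. At an unadjusted p under 0.05 there were 0 members as well, against 2545 of all targets. The median change was −0.04, and the largest fall was that of Ndufa3, a small proximal membrane arm subunit, at −0.19 ± 0.14. The lowest adjusted p was 0.448, of Ndufv1, the flavin-bearing subunit that binds NADH. Ndufv1 was at 0.961, 0.983, 0.981 and 1.01 in MG-cKO male regions and at 1.05, 1.12, 1.27 and 1.10 in WT male regions, which did not overlap. It was the 1 member whose MG-cKO regions all lay below WT after the centring, as they did for 2.44% of all targets. Of the 20 neuron markers 0 were called in either direction.

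The difference between the sexes in the MG-cKO effect was tested itself, as an interaction. limma called 26 of 39 members as more positive in females and 0 as more negative, against 8.06% of all targets called more positive and 6.22% more negative. Among the targets above 2 times the negative probe 33.2% were called more positive. Members differed between females and males by a median of 0.29 in MG-cKO and −0.28 in WT, and both enter this test. The median interaction was 0.55. It was largest for Ndufb8 at 0.79 ± 0.17, Ndufa13 at 0.78 ± 0.21, Ndufv1 at 0.73 ± 0.14 and Ndufa12, an accessory subunit of the peripheral arm, at 0.71 ± 0.15. For Ndufa1 it was 0.01 ± 0.17 and for Ndufb11 −0.08 ± 0.16. Neuron markers were called more positive for 13 of 20 and microglia and macrophage markers more negative for 7 of 16. Sex and scan cannot be told apart in this test.

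In males, BMM-cKO regions had less signal of complex I subunits than WT regions. limma called 33 of 39 members lower and 1 higher, with a median change of −0.42, while 20.3% of all targets were called lower and 24.1% higher. Among the targets above 2 times the negative probe 31.8% were called lower, with a median change of −0.16. After the centring, all 4 BMM-cKO regions lay below all 4 WT regions for 33 members, as for 21.9% of all targets. On the deposited scale, where each group has a scaling of its own, the median of all targets was shifted by 1.43 and that of the members by 1.02. Called lower were 7 of 7 core subunits of the peripheral arm, 7 of 9 accessory ones, 8 of 9 of the proximal and 10 of 11 of the distal membrane arm, and Ndufa4.

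The largest fall was that of Ndufa13, which was at 0.935, 0.960, 0.893 and 0.945 in BMM-cKO male regions and at 1.51, 2.05, 1.81 and 1.47 in WT male regions. Every BMM-cKO region was thus below the negative probe, and the change was −0.77 ± 0.15 (limma adjusted p = 7.74e-05). Ndufa3 changed by −0.75 ± 0.14, from 2.14 ± 0.413 in WT to 1.18 ± 0.107. Ndufs3, a core subunit of the peripheral arm, changed by −0.69 ± 0.11, from 1.53 ± 0.158 to 0.888 ± 0.0460. Ndufb7, of the distal membrane arm, changed by −0.67 ± 0.12, from 1.81 ± 0.222 to 1.06 ± 0.0234. For each of these 3 the groups did not overlap, and the limma adjusted p was at most 6.07e-05. Ndufa4 was at 1.2 ± 0.0939 against 1.93 ± 0.400, a change of −0.58 ± 0.15 (limma adjusted p = 0.00174), and Ndufa4l2, at 0.755 ± 0.0205 against 0.905 ± 0.206, was not called.

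Ndufa1, a small proximal membrane arm subunit, went the other way. Its levels were 1.93, 2.14, 2.06 and 1.94 in BMM-cKO male regions and 1.56, 1.68, 1.87 and 1.58 in WT male regions, without overlap. The change was 0.36 ± 0.12 (limma adjusted p = 0.0147), and it was 0.27 with an adjusted p of 0.0887 when regions were scaled to the negative probe. Ndufb11, of the distal membrane arm, was at 1.98, 2.11, 2.06 and 1.98 against 1.80, 1.85, 1.99 and 1.66. Its change of 0.25 ± 0.11 was not called (limma adjusted p = 0.0714). Thus the 2 X-linked members were the 2 with the largest positive change here. They were singled out after their values were seen. Ndufs6, an accessory subunit with a zinc site, was at 1.56 ± 0.0288 against 1.59 ± 0.186 and was not called.

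The other lists moved in part. Ndufab1 changed by −0.59 ± 0.11 (limma adjusted p = 4.61e-05). Of 10 NADH-producing dehydrogenases 0 were called higher and 4 lower, led by Mdh2 at −0.46 ± 0.15 and Idh3b at −0.41 ± 0.09. Of 16 assembly factors 3 were called higher and 6 lower, with Ndufaf6 at −0.54 ± 0.08 and Tmem70 at 0.51 ± 0.08. Of 10 regulators 2 were called higher and 3 lower: Yy1 changed by 0.66 ± 0.11 and Nrf1, the gene of nuclear respiratory factor 1, by −0.56 ± 0.08. Neuron markers were called lower for 11 of 20 and higher for 0, with a median change of −0.51 and sums of 31.9 to 36.4 in BMM-cKO and 47.5 to 64.5 in WT male regions. Microglia and macrophage markers were called higher for 5 of 16 and lower for 4, with sums of 20.2 to 21.8 and 20.9 to 24.8. Ribosomal proteins were called lower for 12 of 16. BMM-cKO male regions had 6672788 to 10779960 tags, against 1839154 to 4589359 in WT males. The part of these in the complex I result was not tested.

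**Figure D3:**
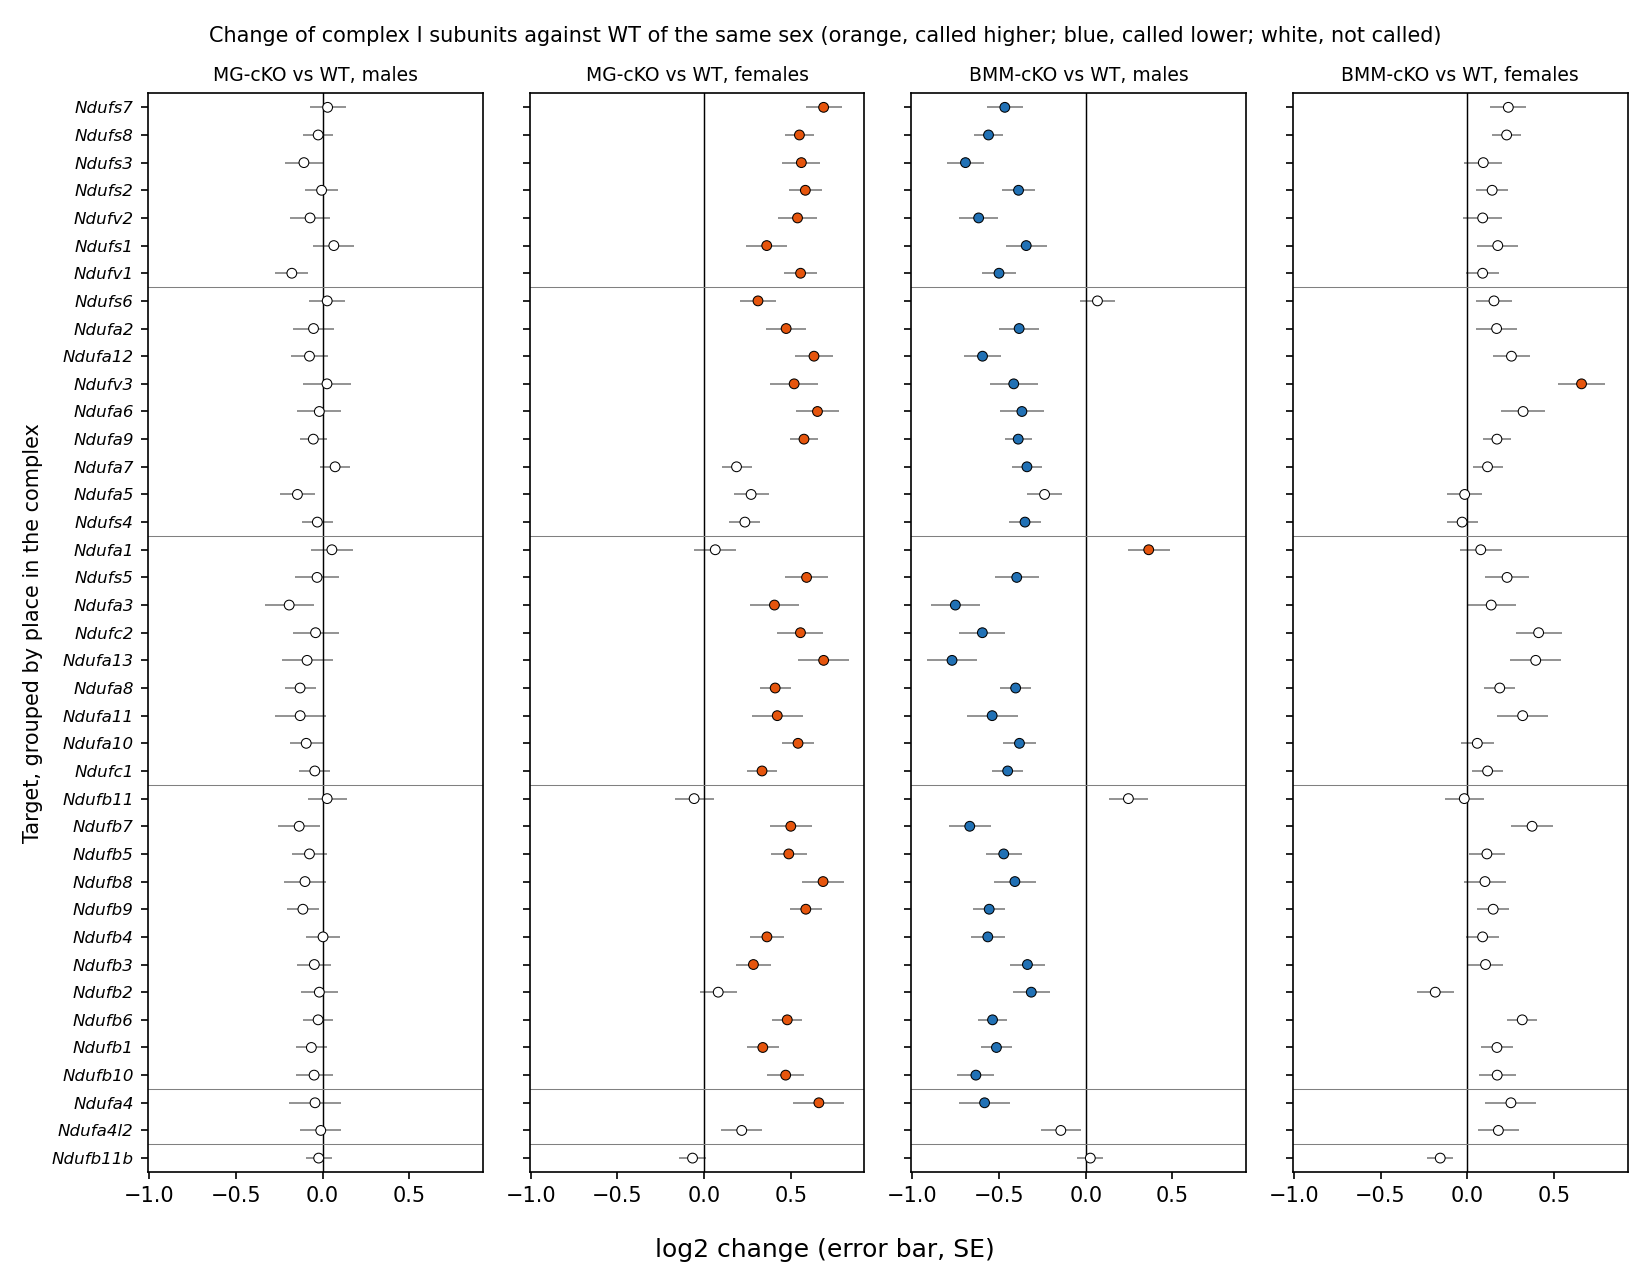
Each point is the log2 change of 1 complex I target against WT of the same sex (bars, SE from the limma fit over 24 regions), orange where called higher, blue where called lower and white where not called. MG-cKO females show 31 called higher, BMM-cKO males 33 called lower and 1 higher (Ndufa1), BMM-cKO females 1 called higher (Ndufv3) and MG-cKO males 0.

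Many members were called in both of these comparisons, which share no region. Both take the spread of a target from the same fit over all regions, so their calls are not independent. Of the 31 members higher in MG-cKO females and the 33 lower in BMM-cKO males, 30 were the same, which is 96.8% of the first and 90.9% of the second. Of all targets 1022 were called in both in these directions, which is 46.6% of those higher in MG-cKO females and 25.2% of those lower in BMM-cKO males. Among the targets above 2 times the negative probe there were 147, which is 50.2% and 73.9% of them. Ndufa4l2, Ndufa5, Ndufb11 and Ndufb11b were called in neither. Ndufa5, an accessory subunit of the peripheral arm, changed by 0.27 ± 0.10 in MG-cKO females (limma adjusted p = 0.0649) and by −0.24 ± 0.10 in BMM-cKO males (limma adjusted p = 0.055). Ndufb11b kept within 1.11 and 1.22 in all 6 group means. Whether its probe tells it apart from Ndufb11 was not tested, as no probe sequences were given.

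In females, BMM-cKO and WT regions differed in 1 called member. Ndufv3, an accessory subunit beside the flavin site, was at 1.27, 1.43, 2.50 and 2.32 in BMM-cKO female regions and at 1.39, 1.13, 0.931 and 0.934 in WT female regions. Regions 3 and 4 were high in BMM-cKO, region 2 lay just above the highest WT region and region 1 within the WT range. The change was 0.66 ± 0.14 (limma adjusted p = 0.0126), and 0.431% of all targets were called higher and 0.321% lower, with 1.44% higher among those above 2 times the negative probe. It lost the call when any of 3 regions was left out (WT females region 3 or 4, or BMM-cKO females region 4) and when only the 2 groups were fitted. The median change of the members was 0.15, with 34 of 39 positive. It was 0.0003 over all targets and 0.09 over those above 2 times the negative probe. Ribosomal proteins had a median change of 0.20, with 14 of 16 positive. At an unadjusted p under 0.05 there were 13 members, against 2773 of all targets. Ndufa4 was at 2.35 ± 0.712 and Ndufa4l2 at 0.784 ± 0.0824, and neither was called.

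BMM-cKO females, region 3, stood apart from the other regions of its group. Its median level of choroid plexus and ependymal markers was 6.45, against 1.04 to 1.19 in the other 3, and Ndufa4 was at 3.41, Ndufa1 at 3.70 and Ndufa13 at 2.88 in it. Without this region and region 2 of MG-cKO females, the count for BMM-cKO against WT females was again 1 and that for MG-cKO against WT females was 33. Region 2 was the lowest MG-cKO female region for the median member, so leaving it out favours a higher count.

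The BMM-cKO effect also differed between the sexes, in a test that takes the same WT regions as the one for MG-cKO. Members differed between females and males by a median of 0.37 in BMM-cKO and −0.28 in WT. limma called 32 of 39 interactions as more positive in females and 0 as more negative, against 14.8% of all targets called more positive and 18.9% more negative, with a median of 0.59. Among the targets above 2 times the negative probe 30.2% were called more positive. Ndufa13 led with 1.17 ± 0.21, followed by Ndufv3 at 1.07 ± 0.19, Ndufb7 at 1.04 ± 0.17 and Ndufc2, a proximal membrane arm subunit, at 1.01 ± 0.19. The 7 members not called were Ndufa1, Ndufa4l2, Ndufa5, Ndufb11, Ndufb11b, Ndufb2 and Ndufs6. Neuron markers were called more positive for 4 of 20 and ribosomal proteins for 7 of 16.

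The 2 knockout groups were compared with each other within each sex, using regions that the comparisons with WT also used. In males 32 of 39 members were called higher in MG-cKO than in BMM-cKO and 0 lower, against 11.7% of all targets called higher and 16.5% lower, with a median difference of 0.41. Among the targets above 2 times the negative probe 26% were called higher. The largest differences were those of Ndufa13 at 0.68 ± 0.15, Ndufs3 at 0.59 ± 0.11, Ndufb10 at 0.58 ± 0.11 and Ndufb4 at 0.57 ± 0.10, the last 2 of the distal membrane arm. Neuron markers were called higher for 7 of 20 and ribosomal proteins for 8 of 16.

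In females 12 of 39 members were called higher in MG-cKO than in BMM-cKO and 0 lower, against 6.48% of all targets called higher and 1.47% lower, with a median of 0.27. This share was near the 31.6% called higher among the targets above 2 times the negative probe, which can pass that level through MG-cKO females. Of these 12, 6 were core subunits of the peripheral arm, of 7 measured. The largest differences were those of Ndufb8 at 0.58 ± 0.12, Ndufa10, a proximal membrane arm subunit of the nucleoside kinase family, at 0.48 ± 0.09, and the core subunits Ndufs3 at 0.47 ± 0.11 and Ndufv1 at 0.47 ± 0.10. The count was 19 without MG-cKO females region 2, 21 without BMM-cKO females region 3 and 29 without both. These were the lowest MG-cKO and the highest BMM-cKO female region for the median member (1.39 and 1.61). Both removals favour a larger difference, and leaving out both was chosen after the data were seen, so these counts are no support. The count was 8 without MG-cKO females region 3, and 6 with only the 2 groups fitted, where Ndufs3 was not called (limma adjusted p = 0.102). Neuron markers were called higher for 15 of 20.

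Females on scan 3 and males on scan 2 were compared by limma within each genotype, but sex and scan cannot be told apart. Plate also follows scan, except for WT females region 1. In WT, 21 members were called lower in females and 1 higher, with a median of −0.28, against 15.1% of all targets called lower and 19.9% higher. Among the targets above 2 times the negative probe 4.63% were called lower. The falls were led by Ndufv2, a core iron-sulphur subunit, at 0.998, 0.791, 0.923 and 0.885 in WT females against 1.29, 1.24, 1.63 and 1.26 in WT males. Its change was −0.51 ± 0.11 (limma adjusted p = 0.000733). Ndufb6 followed at −0.43 ± 0.09, then Ndufc2 at −0.41 ± 0.13 and Ndufa13 at −0.40 ± 0.15. With each of the 8 regions left out in turn, Ndufa13 lost its call in 5 of 8 fits (limma adjusted p up to 0.124) and Ndufc2 in 3 of 8 (up to 0.0865). Neuron markers were called lower for 0 of 20 and higher for 1 in this comparison, with a median change of −0.05. The count of members fell to 13 without WT males region 3.

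Ndufa1 was the 1 member called higher in WT females, at 2.44, 2.08, 2.14 and 2.31 against 1.56, 1.68, 1.87 and 1.58 in WT males. The groups did not overlap, and the change was 0.49 ± 0.12 (limma adjusted p = 0.00204). Ndufb11 changed by 0.27 ± 0.11 and was not called (limma adjusted p = 0.0565). In MG-cKO, 19 members were called higher in females and 0 lower, with a median of 0.29, against 12.4% of all targets called higher and 5.61% lower. Of the targets above 2 times the negative probe 58.3% were called higher, a larger share than of the members. Targets can pass that level through MG-cKO females themselves, so these shares are not level-matched. Ndufa4 led there with 0.71 ± 0.15, followed by Ndufa1 at 0.50 ± 0.12, Ndufs5, a proximal membrane arm subunit, at 0.49 ± 0.13, and Ndufb8 at 0.45 ± 0.12. This count was 2 under quantile normalization, where none of these 4 was called. In BMM-cKO, 23 members were called higher in females and 0 lower, with a median of 0.37, against 5.69% of all targets called higher and 1.9% lower. Of the targets above 2 times the negative probe 35.1% were called higher. Ndufa4 at 0.84 ± 0.15, Ndufv3 at 0.79 ± 0.14, Ndufa13 at 0.76 ± 0.15 and Ndufa3 at 0.69 ± 0.14 led this comparison.

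**Figure D4:**
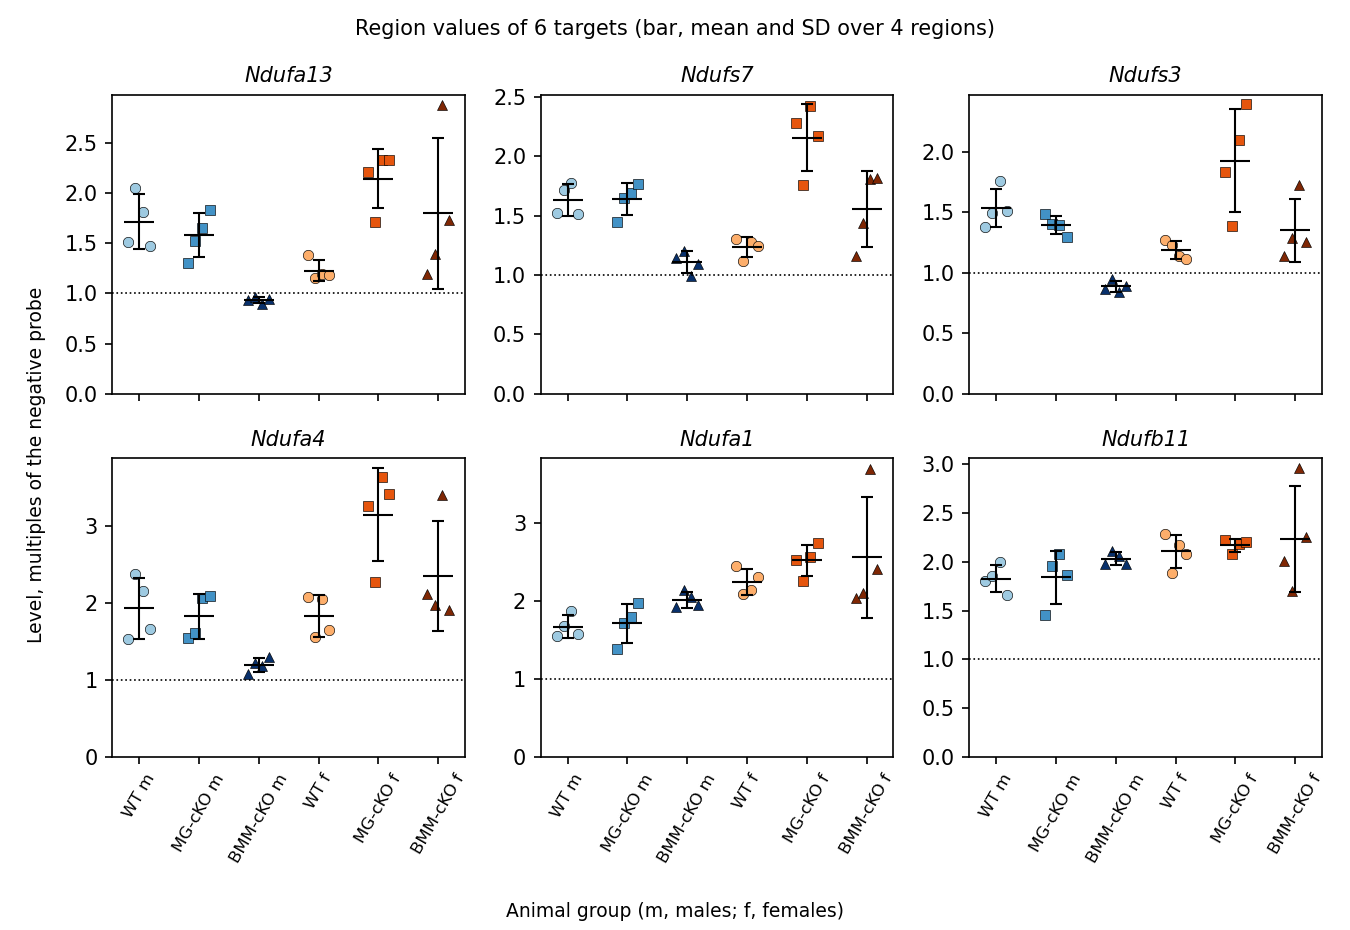
Each point is the level of a target in 1 region (vertical axis, multiples of the negative probe, dotted line at the negative probe), with the mean and SD of the 4 regions of a group. Ndufa13, Ndufs7, Ndufs3 and Ndufa4 were lowest in BMM-cKO males and highest in MG-cKO females, while Ndufa1 and Ndufb11 were lowest in WT males, at 1.67 and 1.83.

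The X-linked pair thus had another order of groups than most members. Ndufa1 was at 1.67 ± 0.145 in WT males, 1.71 ± 0.249 in MG-cKO males, 2.02 ± 0.10 in BMM-cKO males, 2.24 ± 0.165 in WT females, 2.52 ± 0.200 in MG-cKO females and 2.56 ± 0.776 in BMM-cKO females. Ndufb11 was at 1.83 ± 0.137, 1.84 ± 0.271, 2.03 ± 0.0642, 2.11 ± 0.169, 2.17 ± 0.0665 and 2.23 ± 0.540 in the same order. Neighbours in this order overlapped between regions for both targets. Besides this pair, Ndufv3 was the only member with its highest group mean in BMM-cKO females. Ndufs4 and Ndufa4l2 had theirs in WT males.

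Within groups the subunits also moved together from region to region. After the group mean was taken out, the correlation across the 24 regions between a member and the median of the other members was 0.02 to 0.87, with a median of 0.67, and it was above 0.5 for 33 of 39. The median member correlated at 0.61 with the median ribosomal protein, 0.22 with the median neuron marker and −0.11 with the median microglia and macrophage marker. All of these share the depth and the background of a region, so they are given as a description. The correlation of a target with the rest of its set was not computed for other sets. Whether it is higher among complex I subunits was thus not tested.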

How the data were processed

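Per the file headers, the deposited table holds 1 row per probe target and 1 column per region; the software behind it is not given in the sources used here. The values are signal, and the authors' deposited signal values were whole tags times 1 factor per region, set within each group, so deposited levels cannot be compared between groups. From them the ratio to the negative probe and, with limma 3.58.1 (R 4.3.3), log2(value + 1) centred on each region's median target were computed. The fit had 1 coefficient per group over 24 regions, an intensity trend, no filter and no covariate, over 11 comparisons, and was tested on simulated data. On the deposited scale the median of all targets moved by −1.24 to 1.43 (log2) between groups, so changes are given relative to it.

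The members and gene lists were chosen with earlier results of these data known. Named were, per comparison, the called members with the 4 largest rises and 4 largest falls, with Ndufa4 and Ndufa4l2. Levels were given by region for members above 2 times the negative probe and for the largest riser and faller. For other pathway lists the 2 called genes with the largest change were named. Of the library names, 12 male regions and WT females region 1 were on plate B and the other females on plate C. Replicates were numbered by accession and are not pairs. A further table has 12 columns that match no single sample and were not used. Filter, pseudocount, 3 scalings, the groups in the fit and single regions left out were tried as alternatives. Added after seeing the data were voom on tags and leaving out MG-cKO females region 2 together with BMM-cKO females region 3.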

Additional observations from a re-analysis of the deposited data

Results flagged for a closer look

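In 7 of 96 sets of 4 regions tested, 1 region lay far from the other 3 of its group, where chance gives about 1 in 20. Region 3 of BMM-cKO females had Ndufa4 at 3.41 (the others 1.91 to 2.12) and a median choroid plexus and ependymal marker level of 6.45 (1.04 to 1.19). Region 3 of WT males had Ndufv2 at 1.63 (1.24 to 1.29) and a median neuron marker level of 2.85 (2.15 to 2.18). Region 2 of BMM-cKO males had Ndufa3 at 1.34 (1.11 to 1.14) and a median ribosomal protein level of 2.04 (1.67 to 1.72). Region 1 of WT females, the 1 female region on plate B, had Ndufa13 at 1.38 (1.15 to 1.19).

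The knockout effect differed between the sexes, by limma's interaction test, for 7 named members, with Ndufa13 in both knockouts. For MG-cKO, females minus males, the differences were 0.79 for Ndufb8 (adjusted p = 0.00184), 0.78 for Ndufa13 (0.0109), 0.73 for Ndufv1 (0.000402) and 0.71 for Ndufa12 (0.00176). For BMM-cKO they were 1.17 for Ndufa13 (adjusted p = 8.09e-05), 1.07 for Ndufv3 (9.63e-05), 1.04 for Ndufb7 (2.95e-05) and 1.01 for Ndufc2 (0.000133). Sex and scan cannot be told apart in these.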

How the results depend on the processing

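Of the counts of members called, 169 stayed within 1.5 times the main count under an alternative and 19 did not, none with a turned direction. BMM-cKO against WT females (1) gave 2 with the filter, 2 scaled to the negative probe, 2 with voom, 0 with only the groups compared, and 0 to 5 with single regions left out. MG-cKO against BMM-cKO females (12) gave 6 with only the groups compared and 8 to 21 with single regions left out. It gave 29 without MG-cKO females region 2 and BMM-cKO females region 3 together. WT females against males (22) gave 13 to 25 with single regions left out, the lowest without WT males region 3. MG-cKO females against males (19) gave 11 scaled to the 75th percentile, 2 under quantile normalization with a median change of 0.05, and 10 to 21 with single regions left out; it gave 11 without MG-cKO males region 1, 10 without MG-cKO females region 3 and 11 without MG-cKO females region 4. MG-cKO against WT females ranged from 24 to 33 and BMM-cKO against WT males from 30 to 35 with single regions left out. Of named members 19 values lost the call, among them that of Ndufa4, MG-cKO vs WT, females, under quantile normalization (0.33, limma adjusted p = 0.0621). The cause was not tested. The planned edgeR and DESeq2 tests were not run, as the values are signal and the step check did not accept them as counts. No paired analysis was possible because the labels give regions no shared replicate numbers. Above 1.5 times the negative probe there were 12 members, and above 3 times 0. Most members lie near background, where depth and background limit the size of any change that can be read.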
